A study of Mus musculus with 28 samples.

Results

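The 10 immediate early genes described here are Fos, Fosb, Jun, Junb, Egr1, Atf3, Ier2, Ier3, Klf6 and Dusp1. They are 10 of 55487 gene IDs in the deposited tables and 10 of 13631 genes that reached at least 1 TPM in at least 4 libraries, and all 10 passed that filter. The 10 genes were chosen from a named list with their TPM (the authors' level per transcript length, scaled to a fixed total in each library) in all groups in view. Their levels and differences between groups are therefore given as a description, with no test. The samples were 28 RNA-seq libraries of bone marrow derived macrophages from wild-type mice, in 7 groups of 4 libraries. The time recorded for all of them was 48 h. M0 macrophages received no polarizing cytokine. The other 6 groups received IFN-γ or IL-10 at 50 ng/mL. Each cytokine had a Treg-phagocytic group, whose cells had engulfed dead regulatory T cells, a Tconv-phagocytic group, whose cells had engulfed dead conventional CD4+ T cells, and a non-phagocytic group without uptake. ATP or NAD+ served to kill the T cells, which were stained with a dye-coupled anti-CD4 antibody, and after co-culture the macrophages were sorted by whether and what they had engulfed. The series' design text speaks of non-polarizing co-cultures too, but the M0 labels name no T cells, uptake or sort, so cytokine, co-culture and sorting cannot be told apart in differences from M0. Where the libraries of a group came from is not stated, so each p-value measures only the spread between these libraries, which may be technical.

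Immediate early genes are transcribed within minutes of a stimulus from factors that are already in the cell, without new protein synthesis. Growth factor and stress signals reach them through MAP kinases, which act on serum response factor with its Elk partners and on CREB. Their products include transcription factors that set the later response and phosphatases that end the signal. In macrophages, Toll-like receptor ligands and adherence are well known inducers, and handling of cells can raise them too. The titles of the cytokine groups give 48 h as the time of polarization. When uptake and sorting took place relative to these 48 h is not stated.

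The promoters of 8 of the 10 genes (Fos, Fosb, Jun, Junb, Atf3, Ier3, Klf6 and Dusp1) were matched in the RefSeq table of the GRCm38.p6 build, which is the mm10 build named in the submitters' processing notes. Those of Fos, Jun, Klf6 and Dusp1 are shown because they hold the CRE-type letters and because the levels of these 4 genes ran in different directions across the groups. Each run ends before the most upstream transcript start annotated within the window. A longer Dusp1 transcript starts further upstream (the gene is annotated from 26505590 to 26562128), so the Dusp1 run lies inside the annotated gene. They lie at chr12:85473640-85473889 on the plus strand (Fos), chr4:95052223-95052472 on the minus strand (Jun), chr13:5861239-5861481 on the plus strand (Klf6) and chr17:26508520-26508722 on the minus strand (Dusp1). Capitals mark TGACG on either strand, the longer CRE TGACGTCA, and TGACATCA, the variant known from the Jun promoter.
Fos: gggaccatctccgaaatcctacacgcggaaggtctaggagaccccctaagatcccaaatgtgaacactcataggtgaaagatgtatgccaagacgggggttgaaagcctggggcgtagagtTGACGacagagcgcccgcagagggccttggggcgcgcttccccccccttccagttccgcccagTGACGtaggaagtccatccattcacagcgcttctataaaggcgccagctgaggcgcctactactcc
Jun: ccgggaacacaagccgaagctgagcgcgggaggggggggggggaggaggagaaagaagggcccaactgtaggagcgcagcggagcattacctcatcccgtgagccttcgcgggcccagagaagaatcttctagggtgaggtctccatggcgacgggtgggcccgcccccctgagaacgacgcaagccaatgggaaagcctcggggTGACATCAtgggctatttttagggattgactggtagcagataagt
Klf6: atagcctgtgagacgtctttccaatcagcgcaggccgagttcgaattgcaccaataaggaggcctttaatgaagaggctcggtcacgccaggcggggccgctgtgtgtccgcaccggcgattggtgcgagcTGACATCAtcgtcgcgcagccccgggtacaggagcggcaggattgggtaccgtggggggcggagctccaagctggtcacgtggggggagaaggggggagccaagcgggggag
Dusp1: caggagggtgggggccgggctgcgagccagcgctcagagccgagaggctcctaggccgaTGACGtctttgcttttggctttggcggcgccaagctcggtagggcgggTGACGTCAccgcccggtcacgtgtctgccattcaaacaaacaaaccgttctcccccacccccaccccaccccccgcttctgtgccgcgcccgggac
On both strands of the 250 bases before the RefSeq start, TGACG was found in 5 of 8 windows (Atf3, Dusp1, Fos, Fosb and Junb) and in 17.8% of all 32851 promoter windows in the table. TGACGTCA, which contains TGACG, was found in Dusp1 (1 of 8) and in 1.55% of all windows. TGACATCA was found in Jun and Klf6 (2 of 8) and in 2.93% of all windows. The AP-1 site TGANTCA, the STAT site TTCNNNGAA and the CArG box of serum response factor were found in 0 of 8 windows, against 6.75%, 7.02% and 1.47% of all windows. Sites further upstream were outside the search, and Egr1 and Ier2 had no window. The heat shock element letters GAANNTTC were found in Jun (1 of 8) and in 6.69% of all windows.

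The deposited values hold no read counts. Relative depth was read from the smallest steps between values. With the deepest library, of M0, at 100%, the 12 libraries made under IFN-γ stood at 10.97% to 23.6%, those made under IL-10 at 49.0% to 91.1% and the other M0 libraries at 68.6% or more. Depth and cytokine therefore cannot be told apart between IFN-γ and the other groups. Treg-phagocytic libraries were also shallower than Tconv-phagocytic ones, at 10.97% to 19.8% against 20.2% to 23.6% under IFN-γ and at 49.0% to 65.6% against 76.0% to 91.1% under IL-10, so the engulfed cell and depth cannot be told apart there either. The 10 macrophage markers (among them Csf1r, Adgre1, Cd68, Lyz2 and Itgam) all had a mean of at least 1 TPM in every group. The summed level of 20 T cell genes was 656 to 1180 TPM under IFN-γ, 189 to 350 TPM under IL-10 and 202 to 321 TPM in M0, with 0 of the 20 at 0 TPM in every library of a group. Il7r made up 159 TPM of it in M0 and 90.8 to 114 TPM in the other groups on average. Without Il7r the other 19 genes summed to 47.6 to 155 TPM in M0, 93.2 to 244 TPM under IL-10 and 559 to 1068 TPM under IFN-γ. The 8 B cell genes summed to at most 68.2 TPM, and the 10 neutrophil genes, of which 5 passed the filter, to at most 75.7 TPM. The 8 stromal genes summed to 136 ± 8.89 TPM in M0, 31.4 ± 1.91 to 162 ± 5.07 TPM in the IL-10 groups and 5.69 ± 2.05 to 10.02 ± 1.49 TPM in the IFN-γ groups (SD, n = 4). The 13 mitochondrial messages summed to 43470 to 54380 TPM in M0, IL-10 and IFN-γ Treg-phagocytic libraries and to 57640 to 68350 TPM in the other IFN-γ libraries. The part of these cells and of RNA quality in the differences below was not tested, and in such bulk samples fewer cells of a type and less RNA per cell cannot be told apart.

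Most of the 10 genes were abundant. Junb, the AP-1 subunit, was highest on average (355 TPM over 28 libraries, rank 315 of the 13631 genes), followed by Atf3 (328 TPM, rank 344) and Fos (242 TPM, rank 475). Fosb was lowest (6.81 TPM, rank 8393). Egr1 spanned the widest range, with an 11.0-fold ratio of highest to lowest library, and Jun the narrowest of the 10, with a 1.33-fold ratio. Klf6 followed Egr1 with a 3.52-fold ratio and Ier3 with a 2.63-fold ratio. The mean coefficient of variation within groups was 3.74% (Junb) to 15.3% (Fosb). Fosb in IFN-γ libraries rested on an estimated 38 to 118 reads a library and Egr1 there on 53 to 125, so these levels were the least precise.

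**Figure D1:**
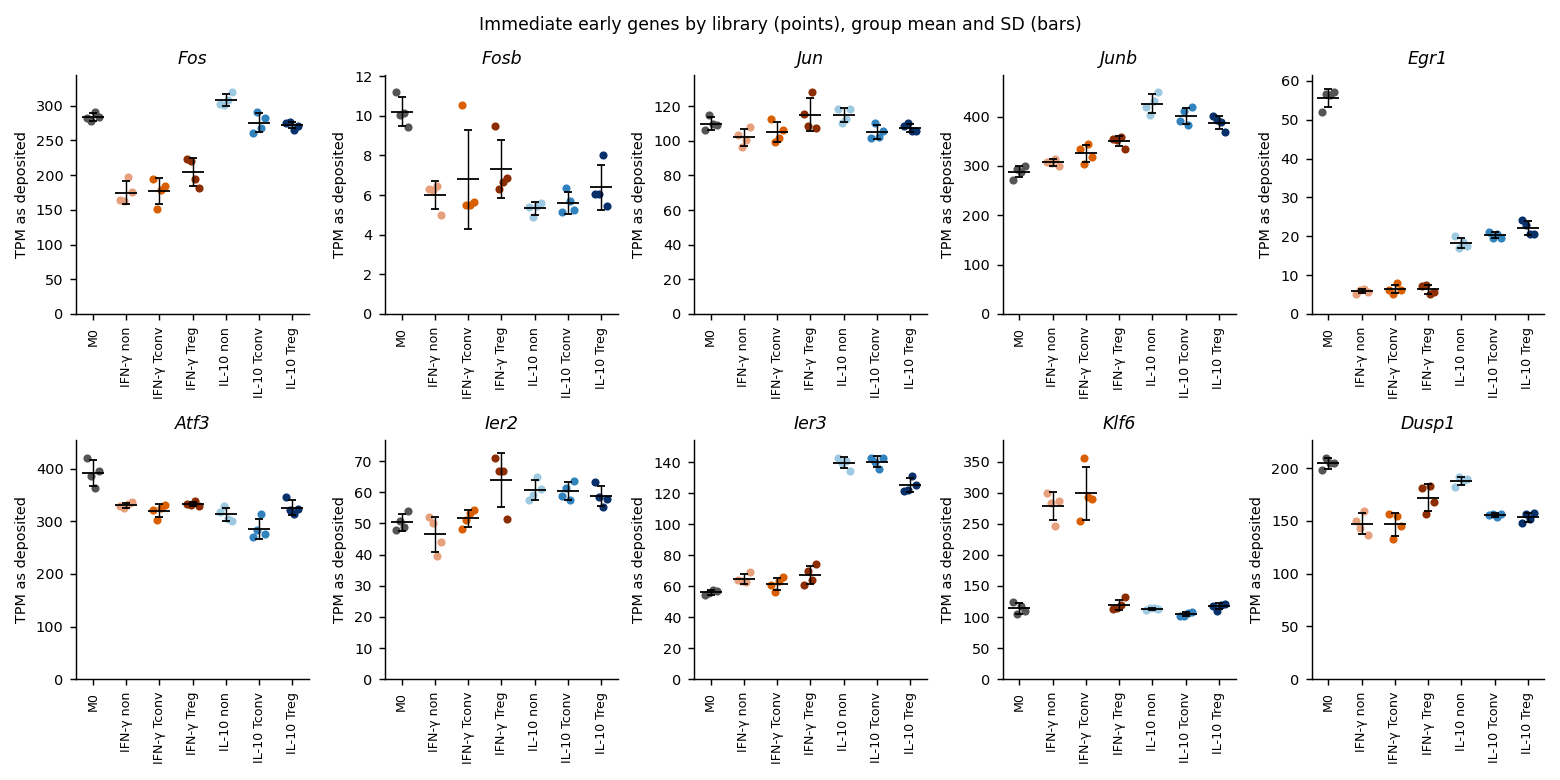
Level of each of the 10 genes (TPM as deposited, linear axis from 0) in the 7 groups. Points are the 4 libraries of a group, the bar and whiskers their mean and SD; Klf6 stands at 247 to 356 TPM in the non-phagocytic and Tconv-phagocytic IFN-γ libraries and at 101 to 132 TPM in the other 5 groups.

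Klf6 (ENSMUSG00000000078, chromosome 13, 5861482 to 5870394 on the plus strand of mm10), a zinc finger transcription factor, stood apart from the other 9 genes. Its levels were 299, 283, 247 and 286 TPM in IFN-γ non-phagocytic libraries and 255, 356, 294 and 290 TPM in IFN-γ Tconv-phagocytic libraries. In IFN-γ Treg-phagocytic libraries they were 112, 115, 119 and 132 TPM. All 8 libraries of the first pair of groups lay above all 4 of the last, and the means were 279 ± 22.4, 299 ± 42.2 and 119 ± 8.53 TPM (SD, n = 4 each). The Tconv-phagocytic mean was 2.50-fold and the non-phagocytic mean 2.33-fold that of the Treg-phagocytic group. After scaling between libraries, the Treg- minus Tconv-phagocytic difference of Klf6 was -1.18 ± 0.12 (SE) on the log2(TPM + 1) scale. It was -1.14 in the libraries titled BV421 alone and -1.23 in those titled Ax647 alone. Titles and library names of the Treg-phagocytic libraries give different dyes, so these splits may compare across dyes.

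The IL-10 and M0 libraries held Klf6 at the lower of these levels. It was 124, 106, 119 and 109 TPM in M0, and 112 to 115 TPM in IL-10 non-phagocytic, 101 to 108 TPM in IL-10 Tconv-phagocytic and 110 to 121 TPM in IL-10 Treg-phagocytic libraries. On deposited TPM these 4 groups and the IFN-γ Treg-phagocytic group spanned 101 to 132 TPM, and the IFN-γ Treg-phagocytic range overlapped those of M0, IL-10 non-phagocytic and IL-10 Treg-phagocytic libraries. After scaling, the IFN-γ Treg-phagocytic libraries (142 ± 13.0 scaled TPM) lay above those of IL-10 Treg-phagocytic macrophages (110 ± 4.51), so that this order rests on the scaling. Under IL-10 the Treg- minus Tconv-phagocytic difference had the opposite sign, at 0.16 ± 0.04 (SE), with the groups apart.

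Across the 28 libraries the genes whose log2 levels ran most like those of Klf6 were Samhd1 (Pearson r = 0.99), which encodes a dNTP hydrolase, Prkcd (r = 0.99), a protein kinase C, and AU020206 (r = 0.99). Samhd1 averaged 1089 and 1334 TPM in IFN-γ non-phagocytic and Tconv-phagocytic libraries, 262 TPM in IFN-γ Treg-phagocytic libraries and 179 to 206 TPM elsewhere. Prkcd averaged 844, 910 and 313 TPM in the same 3 IFN-γ groups and 276 to 340 TPM elsewhere. These correlations are over libraries that share the same 7 groups and the same differences in depth.

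Heat shock genes moved with Klf6. The summed level of the 8 heat shock genes fixed as a sign of stress was 1787 to 2114 TPM in IFN-γ non-phagocytic, 2062 to 2922 TPM in IFN-γ Tconv-phagocytic and 984 to 1152 TPM in IFN-γ Treg-phagocytic libraries. It was 966 to 1091 TPM in the IL-10 and M0 libraries. Hspa1a, an inducible HSP70 chaperone, was 358, 589, 485 and 462 TPM in the IFN-γ Tconv-phagocytic libraries, and the library with the most Hspa1a was the one with 356 TPM of Klf6, the one with the least the one with 255 TPM. In IFN-γ Treg-phagocytic libraries Hspa1a was 48.0 to 112 TPM and in M0 it was 7.83 to 13.1 TPM. Hspa1a and Hspa1b are near-identical copies whose reads the authors' counting could split either way. The part of the heat shock genes in the Klf6 difference was not tested. The T cell sum did not separate these IFN-γ groups: it was 656 to 1059 TPM in non-phagocytic, 767 to 964 TPM in Tconv-phagocytic and 753 to 1180 TPM in Treg-phagocytic libraries. The sum of the 10 macrophage markers did: it was 21120 to 21630 TPM in IFN-γ Treg-phagocytic libraries and 16820 to 19190 TPM in the other IFN-γ libraries, most of it Lyz2, and its part in the Klf6 difference was not tested either.

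**Figure D2:**
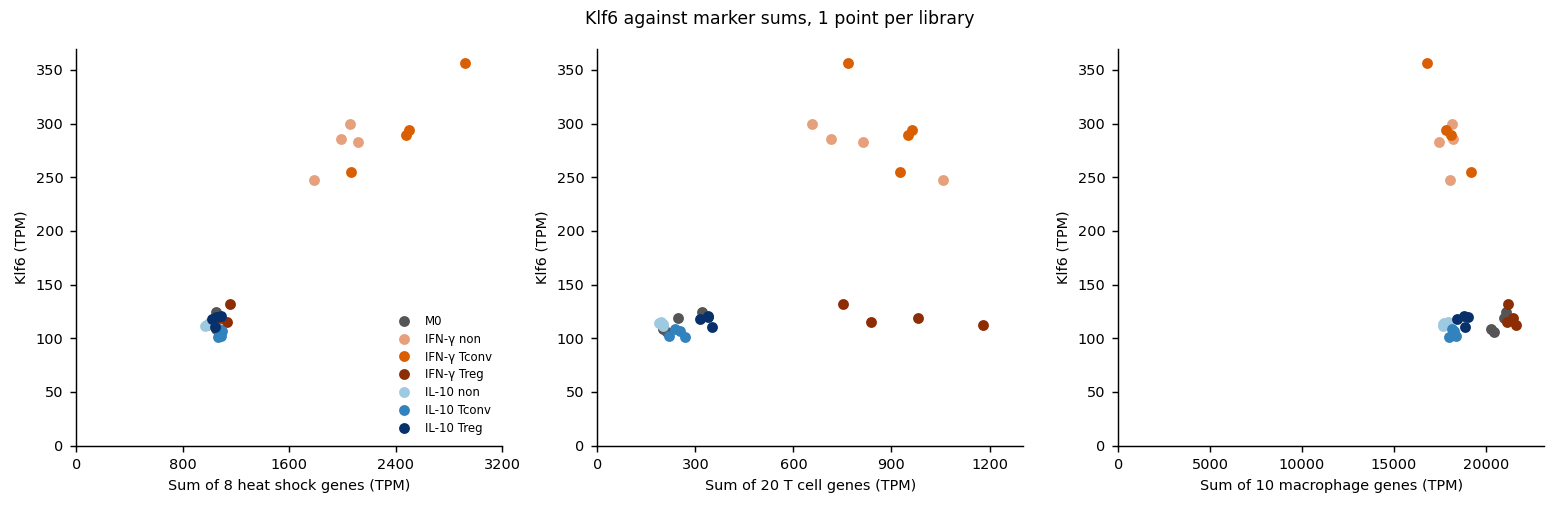
Klf6 level against the summed level of 8 heat shock, 20 T cell and 10 macrophage genes (all in TPM, axes from 0), 1 point per library, coloured by group. The 8 IFN-γ non-phagocytic and Tconv-phagocytic libraries lie at 1787 to 2922 TPM of the heat shock genes and all other libraries at 966 to 1152 TPM.

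The other 9 genes differed little between IFN-γ Treg- and Tconv-phagocytic macrophages, and most leaned the other way from Klf6. On scaled values 7 of 10 genes had groups that did not overlap, 6 higher (Fos, Jun, Junb, Atf3, Ier2 and Dusp1) and Klf6 lower in Treg-phagocytic libraries. Across all genes tested, 19.1% did not overlap in this comparison. On TPM as deposited only 1 of 10, Klf6, did not overlap, against 17.7% of all genes. The 6 higher genes therefore depend on the scaling, which moved the median of all genes by 0.098. Nothing is read from this count, since the list was chosen with these values known.

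Ier2, an early gene whose product shuttles to the nucleus, had the largest scaled difference of these 6. It was 71.2, 66.8, 66.7 and 51.3 TPM in IFN-γ Treg-phagocytic libraries against 48.3, 51.0, 53.3 and 54.2 TPM in Tconv-phagocytic libraries. The groups overlapped through the Treg-phagocytic library titled BV421-2 at 51.3 TPM. The scaled log2 difference of Ier2 was 0.42 ± 0.09 (SE) and the unscaled one 0.29. Dusp1, the phosphatase that switches off MAP kinases, was 181, 156, 183 and 168 TPM against 156, 132, 154 and 145 TPM, a scaled difference of 0.35 ± 0.07 (SE) and an unscaled one of 0.23. For Fos, the AP-1 partner of Jun, the values were 223, 221, 194 and 181 TPM against 194, 151, 179 and 185 TPM, with a scaled difference of 0.33 ± 0.10 (SE) and an unscaled one of 0.21. The deposited values of both genes overlapped between the groups. Egr1 was 5.17 to 7.34 TPM against 5.27 to 7.99 TPM, and its groups overlapped on either scale.

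Against IFN-γ non-phagocytic macrophages, Treg-phagocytic macrophages gave much the same values. On scaled values 8 of 10 genes did not overlap (7 higher and Klf6 lower), with 15.6% of all genes tested not overlapping, and on deposited TPM 2 of 10 did not overlap, Junb higher and Klf6 lower, against 14.5% of all genes. Junb was 355, 353, 359 and 335 TPM in Treg-phagocytic libraries and 309, 306, 314 and 300 TPM in non-phagocytic libraries, a scaled difference of 0.27 ± 0.02 (SE). The 2 comparisons share the Treg-phagocytic libraries. Tconv-phagocytic and non-phagocytic macrophages under IFN-γ overlapped for 9 of 10 genes on scaled values and for 10 of 10 on deposited TPM. The exception was Atf3, a stress-induced partner of Jun, with a scaled difference of -0.09. In that comparison 3.48% of all genes did not overlap after scaling and 3.66% on deposited TPM.

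**Figure D3:**
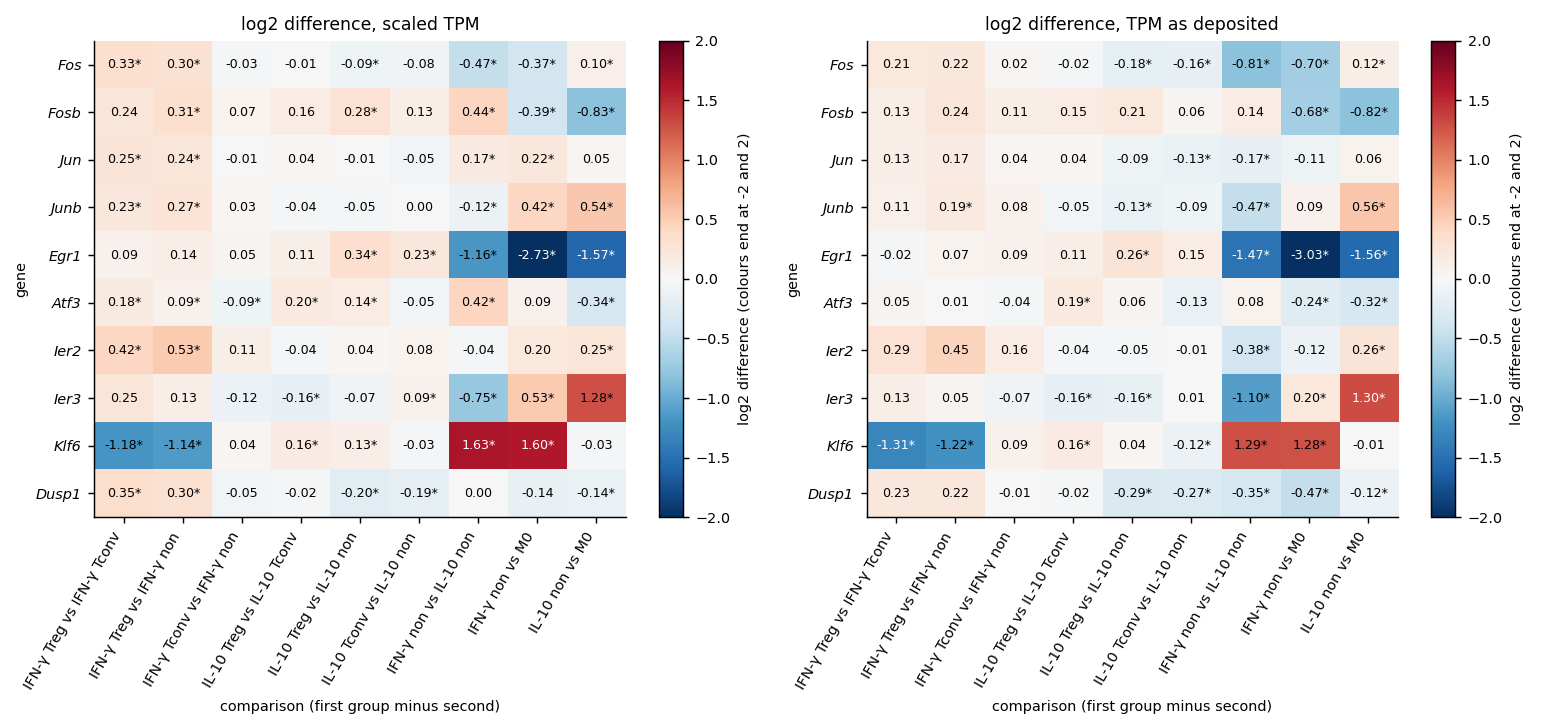
Log2 difference of each gene in each of 9 comparisons (first group minus second), after scaling (left) and on TPM as deposited (right); an asterisk marks groups whose 4 libraries do not overlap. The colour scale ends at -2 and 2, below the Egr1 difference of IFN-γ non-phagocytic libraries and M0 (-2.73 scaled). Klf6 is the lowest value of both left-hand columns in either panel.

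Under IL-10 the uptake groups were close. Between Treg- and Tconv-phagocytic libraries 3 of 10 genes did not overlap, Atf3 and Klf6 higher and Ier3 lower in Treg-phagocytic macrophages, on scaled and on deposited values alike. Of all genes tested, 8.83% did not overlap after scaling and 8.7% on deposited TPM. Atf3 was 346, 321, 314 and 324 TPM in Treg-phagocytic and 270, 283, 313 and 276 TPM in Tconv-phagocytic libraries, where the library titled Ax647-1 came within 1 TPM of the other group. The difference of Atf3 was 0.20 ± 0.06 (SE). Ier3, which is linked to survival signalling, was 122, 122, 131 and 126 TPM against 143, 140, 135 and 143 TPM, a difference of -0.16 ± 0.03 (SE). In both genes the groups were apart by less than their whole spread.

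Dusp1 separated phagocytic from non-phagocytic macrophages under IL-10 on both scales. It was 182, 191, 188 and 190 TPM in non-phagocytic libraries, 156, 157, 153 and 156 TPM in Tconv-phagocytic libraries and 148, 156, 152 and 158 TPM in Treg-phagocytic libraries. The non-phagocytic libraries lay above all 8 phagocytic ones. The scaled differences from the non-phagocytic group were -0.19 ± 0.02 (Tconv-phagocytic) and -0.20 ± 0.03 (Treg-phagocytic, SE). Egr1, a zinc finger factor, was 18.2 ± 1.34 TPM in non-phagocytic, 20.3 ± 0.75 TPM in Tconv-phagocytic and 22.1 ± 1.76 TPM in Treg-phagocytic libraries (SD, n = 4), with scaled differences from non-phagocytic libraries of 0.23 ± 0.06 and 0.34 ± 0.07 (SE).

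For Treg-phagocytic against non-phagocytic libraries under IL-10, 6 of 10 genes did not overlap after scaling (4 higher and 2 lower, against 18% of all genes), and 5 of 10 on deposited TPM (1 higher and 4 lower, against 21.6% of all genes). For Tconv-phagocytic against non-phagocytic libraries the counts were 3 of 10 (2 higher and 1 lower, against 13.8% of all genes) and 4 of 10 (0 higher and 4 lower, against 16.9%). The scaling moved the median of all genes by 0.075 and 0.073 in these comparisons, and it decided the direction of the smaller differences. Dusp1 was lower than in non-phagocytic libraries on both scales. Egr1 was higher on both in Treg-phagocytic libraries, while in Tconv-phagocytic libraries its deposited values overlapped those of the non-phagocytic group (unscaled difference 0.15).

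Klf6, Egr1, Ier3, Fos and Junb did not overlap between IFN-γ and IL-10 non-phagocytic libraries on either scale. Jun did not overlap on either scale too, but with opposite signs. Between IFN-γ and IL-10 non-phagocytic macrophages 8 of 10 genes did not overlap on scaled values (4 higher and 4 lower under IFN-γ) and 8 of 10 on deposited TPM (1 higher and 7 lower). Of all genes tested, 48.7% did not overlap after scaling (3595 higher and 3047 lower) and 53.9% on deposited TPM (2179 higher and 5174 lower), where the median of all genes was -0.26. The scaling moved the median of all genes by 0.29 here. The mean log2 scaling factors were -0.17 (IFN-γ) and 0.18 (IL-10), so abundant genes moved by more than that median. Small differences can change sign with the scaling: the Jun difference was 0.17 after scaling and -0.17 without. Klf6 was higher under IFN-γ on both scales, by 1.63 ± 0.07 (SE) scaled and 1.29 unscaled. Egr1, Ier3, Fos and Junb were lower on both scales.

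Egr1 was 52.0, 56.6, 56.4 and 57.1 TPM in M0, 5.24, 6.24, 6.48 and 5.77 TPM in IFN-γ non-phagocytic libraries and 20.02, 17.0, 18.4 and 17.5 TPM in IL-10 non-phagocytic libraries. The 3 groups were fully apart, and the M0 mean was 9.36-fold the IFN-γ mean and 3.05-fold the IL-10 mean. All 12 IFN-γ libraries (5.17 to 7.99 TPM) lay below all 12 IL-10 libraries (17.0 to 24.1 TPM). The gene most like Egr1 over the 28 libraries was Pgd (r = 0.98), a pentose phosphate pathway dehydrogenase, with means of 323 TPM in M0, 109 to 117 TPM in the IFN-γ groups and 205 to 207 TPM in the IL-10 groups.

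Ier3 ran with IL-10. It was 54.3, 55.5, 57.7 and 56.6 TPM in M0, 63.9, 63.2, 62.7 and 69.2 TPM in IFN-γ non-phagocytic libraries and 143, 140, 141 and 135 TPM in IL-10 non-phagocytic libraries. The IL-10 mean was 2.49-fold the M0 mean. The 12 IL-10 libraries, at 122 to 143 TPM, lay above all other libraries, at 54.3 to 74.6 TPM. C1qa, a complement subunit, was the gene most like it (r = 0.99), with 230 TPM in M0, 300 to 337 TPM in the IFN-γ groups and 790 to 936 TPM in the IL-10 groups.

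Among the AP-1 subunits, Fos was 283, 277, 291 and 283 TPM in M0, 164, 162, 197 and 176 TPM in IFN-γ non-phagocytic libraries and 302, 301, 309 and 319 TPM in IL-10 non-phagocytic libraries. The IFN-γ non-phagocytic libraries were the lowest of these and did not overlap the M0 or IL-10 non-phagocytic libraries on either scale. Fosb, a second Fos family member, was 11.2, 10.1, 10.2 and 9.45 TPM in M0 and 4.88 to 6.45 TPM in both non-phagocytic groups. Junb was 272, 293, 289 and 301 TPM in M0 and 419, 404, 431 and 449 TPM in IL-10 non-phagocytic libraries, and its 300 to 314 TPM in IFN-γ non-phagocytic libraries overlapped M0 on deposited TPM but not after scaling. The IL-10 minus M0 difference of Junb was 0.54 ± 0.05 (SE). Jun stayed within 96.4 to 128 TPM in all 28 libraries. The gene most like Junb was Zfp36 (r = 0.94), which encodes an RNA-binding protein that promotes decay of cytokine messages. The one most like Fos was Cdr2 (r = 0.93).

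Of the stress and feedback genes, Atf3 was 421, 386, 363 and 396 TPM in M0 and 301 to 336 TPM in both non-phagocytic groups, where it was lower than in M0 under IL-10 on both scales. Under IFN-γ the Atf3 difference from M0 was 0.09 after scaling, with overlap, and -0.24 without scaling. Dusp1 was 198, 210, 205 and 205 TPM in M0, above all libraries of both non-phagocytic groups (137 to 191 TPM) on deposited TPM. Ier2 was 47.8 to 54.0 TPM in M0 and 57.6 to 65.0 TPM in IL-10 non-phagocytic libraries. Against M0, 7 of 10 genes did not overlap in IFN-γ non-phagocytic macrophages after scaling (4 higher and 3 lower) and 7 of 10 on deposited TPM (2 higher and 5 lower), with 50.1% and 55.2% of all genes not overlapping on the respective scales and a shift of the median of all genes of 0.27. In IL-10 non-phagocytic macrophages the count was 8 of 10 (4 higher and 4 lower) on either scale, with 29.2% of all genes not overlapping after scaling and 29.1% on deposited TPM.

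The 10 genes did not run as a block. Over the 28 libraries the 45 pairwise Pearson correlations of log2 levels ranged from -0.94 (Fos with Klf6) to 0.76, with a median of 0.03. After removal of group means they ranged from -0.76 to 0.49, and the lowest was again Fos with Klf6. This value pools the deviations of all 7 groups, so groups in which Klf6 spread widely weigh most, and it was not computed per group. In the IFN-γ Tconv- and Treg-phagocytic groups the library with the most Klf6 held the least Fos. Among IFN-γ non-phagocytic libraries the one with the least Klf6 held the most Fos. M0 differed, in that the library with the least Klf6 also held the least Fos. The pairs share libraries, depth and the fixed TPM total.

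The fluorescent dye was a contrast that the choice of genes did not use. Among the 8 Tconv-phagocytic libraries, where title and library name give the same dye, BV421 was compared with Ax647 with the cytokine as a covariate. With limma and a limit of 0.05 on the adjusted p, 0 of 10 genes passed, and 0 of 10 had an unadjusted p under 0.05. Of all genes tested 0% were called, and 478 genes had an unadjusted p under 0.05. The lowest adjusted p among the 10 genes was 0.996, and the largest difference was 0.24 ± 0.20 (SE) for Fosb. For all 8 Treg-phagocytic libraries the title and the library name give different dyes, so dye was not compared there.

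A wider set of 69 other early genes, drawn up without the 10, was tested with limma: 14 AP-1 family genes, 8 of the Egr and Nr4a families and their Nab co-repressors, 10 of the Klf and Ier families, 9 Dusp phosphatases and 28 others. Of these, 65 passed the filter, and Fosl1, Egr4, Nr4a3 and Hbegf did not. This set, too, was drawn up with earlier results known.

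**Figure D4:**
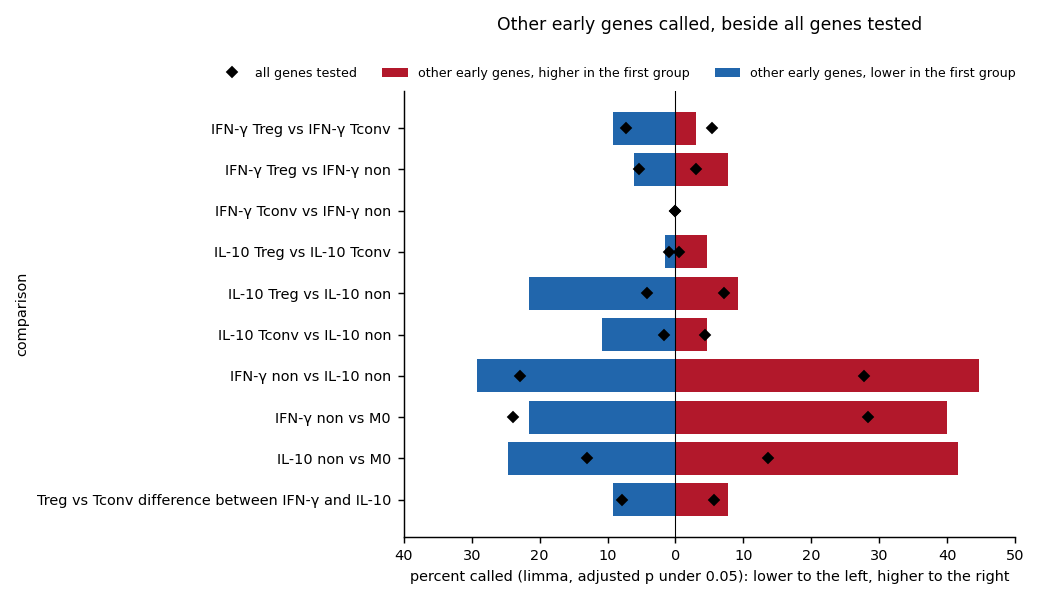
Share of the 65 other early genes called lower (left) or higher (right) in the first group of each comparison (limma, adjusted p under 0.05), with diamonds for all 13631 genes tested. The axis gives percent in both directions, and the bars are longest in the 3 comparisons of non-phagocytic and M0 groups.

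Between IFN-γ Treg- and Tconv-phagocytic macrophages 8 of 65 other early genes were called, 2 higher and 6 lower, against 12.7% of all genes. By family these were 1 of 13 AP-1 genes, 1 of 10 Klf and Ier genes, 6 of 27 others, 0 of 6 Egr and Nr4a genes and 0 of 9 Dusp genes. Per1, a circadian clock repressor that is also an early gene, fell from 43.4 ± 5.08 to 23.2 ± 0.553 TPM (log2 difference -0.75 ± 0.09 SE, adjusted p = 0.0024). Klf10, a TGF-β-inducible Klf factor, fell from 90.6 ± 15.6 to 49.6 ± 4.66 TPM (-0.72 ± 0.12, adjusted p = 0.00854). Its libraries were 70.4, 108, 88.5 and 95.8 TPM in the Tconv-phagocytic and 56.2, 48.3, 45.1 and 49.0 TPM in the Treg-phagocytic group. Mcl1, a survival factor, fell from 356 ± 31.5 to 259 ± 6.86 TPM (-0.33 ± 0.06, adjusted p = 0.0133). These 3 genes were called under each alternative that was run. The heat shock sum was also lower, at 984 to 1152 TPM in Treg-phagocytic against 2062 to 2922 TPM in Tconv-phagocytic libraries. Its part in these 3 differences was not tested.

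The calls of Nfkbia (-0.46, adjusted p = 0.0231), Zfp36l2 (-0.28, adjusted p = 0.0275), Btg2 (0.38, adjusted p = 0.0324) and Cebpb (0.24, adjusted p = 0.0193) did not hold throughout. They were lost in 5, 6, 7 and 2 of the 8 fits that left out 1 library, and their adjusted p reached at most 0.0743, 0.0787, 0.158 and 0.305 over the alternatives. Over the 8 fits that left out 1 library the count was 3 to 7 genes. The lowest count came without the Tconv-phagocytic library titled Ax647-2. It was 25 (15 higher and 10 lower) in 1 model of all 28 libraries. For this and every other alternative fit the share of all genes called was not computed, so these counts have no background. Of 26 upstream kinases and factors 4 were called. Mapk3, the ERK1 kinase, differed by 0.22 (adjusted p = 0.0276), Map2k2, its activator, by 0.38 (adjusted p = 0.0331) and Mapkapk2, a p38 target, by 0.25 (adjusted p = 0.0126). Each of these 3 lost the call without scaling and with the replicate block, which pairs these libraries by title. Mapk3 and Map2k2 also lost it in 5 and 6 of the 8 fits that left out 1 library. Over the alternatives the adjusted p of Mapk3, Map2k2 and Mapkapk2 was at most 0.296, 0.102 and 0.144. Mapk9, the JNK2 kinase, differed by -0.74 (adjusted p = 0.0481), a call lost in each of the 8 fits that left out 1 library (adjusted p of at most 0.138 over the alternatives).

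Against IFN-γ non-phagocytic libraries, Treg-phagocytic libraries gave 9 of 65 calls, 5 higher and 4 lower, against 8.31% of all genes. Klf10 (-0.79 ± 0.07, adjusted p = 0.00128), Per1 (-0.70 ± 0.08, adjusted p = 0.00258), Zfp36l2, an RNA-binding decay factor (-0.25 ± 0.04, adjusted p = 0.0119), and Mcl1 (-0.24 ± 0.04, adjusted p = 0.0123) fell under each alternative that was run. The heat shock sum was lower here too (984 to 1152 TPM against 1787 to 2114 TPM), and its part in these falls was not tested. The 5 rises were Btg2 (0.46), Sgk1 (0.45), Atf5 (0.34), Klf2 (0.29) and Zfp36 (0.22), with adjusted p of 0.0197 to 0.0464. Each of the 5 lost its call without scaling and in 4 to 7 of the 8 fits that left out 1 library, so that the count was 4 to 8 genes there and 5 without scaling (0 higher and 5 lower). Of the upstream genes 2 of 26 were called. Mapk9 was lower (-0.75, adjusted p = 0.0444) and lost the call in 6 of 8 such fits. Mapkapk2 was higher (0.19, adjusted p = 0.033) and lost it in 7 of 8 and without scaling (adjusted p = 0.203, the highest of its alternatives). Between Tconv-phagocytic and non-phagocytic libraries 0 of 65 were called, against 0.00734% of all genes, and 7 of 65 had an unadjusted p under 0.05, against 6.4% of all genes. In 1 model of all 28 libraries 2 were called. Of the upstream genes 0 of 26 were called and 1 had an unadjusted p under 0.05.

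Under IL-10, Treg- against Tconv-phagocytic macrophages gave 4 of 65 calls, 3 higher and 1 lower, against 1.39% of all genes. Ccn1, a secreted matrix protein and serum-induced early gene, fell from 11.1 ± 0.826 to 2.80 ± 0.439 TPM (-1.66 ± 0.10, adjusted p = 6.83e-05), a call kept under each alternative that was run. The stromal list moved with Ccn1: it summed to 157 to 169 TPM in the Tconv-phagocytic, 88.6 to 92.6 TPM in the non-phagocytic and 29.7 to 33.2 TPM in the Treg-phagocytic libraries, and its part in the Ccn1 difference was not tested. Nr4a1 (0.34, adjusted p = 0.04), Plk2 (0.19, adjusted p = 0.0215) and Id2 (0.15, adjusted p = 0.0319) rose and lost the call in 6 or 7 of the 8 fits that left out 1 library. There the count was 1 to 3 genes.

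Against IL-10 non-phagocytic libraries, Treg-phagocytic libraries gave 20 of 65 calls, 6 higher and 14 lower, against 11.4% of all genes. Nr4a1, an orphan nuclear receptor, rose from 8.34 ± 1.24 to 14.0 ± 0.940 TPM (0.76 ± 0.10, adjusted p = 0.00216), and Dusp2, an ERK phosphatase, from 7.63 ± 0.936 to 11.2 ± 0.568 TPM (0.58 ± 0.09, adjusted p = 0.00415). The T cell sum moved with Nr4a1 and Dusp2: it was 189 to 201 TPM in non-phagocytic, 219 to 269 TPM in Tconv-phagocytic and 315 to 350 TPM in Treg-phagocytic libraries under IL-10, and its part in these differences was not tested. Tnfaip3 (0.41), Gadd45b (0.32) and Plk2 (0.24) also rose. Ccn1 fell by 0.86 on the log2 scale, Klf4 by 0.51, Fosl2 by 0.37, Sgk1 by 0.34 and Nfkbiz by 0.31. The call of Klf4 (adjusted p = 0.0215) was lost in 5 of 8 fits that left out 1 library, and that of Fosl2 (adjusted p = 0.00511) in 1 model of all 28 libraries (adjusted p = 0.515, the highest of its alternatives; the lowest was 0.0018). The count in that model was 13.

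Tconv-phagocytic against non-phagocytic libraries gave 10 of 65 calls, 3 higher and 7 lower, against 6.11% of all genes. Ccn1 rose from 6.30 ± 0.652 to 11.1 ± 0.826 TPM (0.80 ± 0.08, adjusted p = 0.00147). Dusp4, a nuclear MAP kinase phosphatase, fell from 10.5 ± 0.756 to 6.83 ± 0.290 TPM (-0.47 ± 0.06, adjusted p = 0.00485). Both calls held under each alternative that was run. Those of Nr4a1, Nfkbia, Klf4, Sgk1, Fosl2 and Nfkbiz were each lost in at least 1 fit that left out 1 library, and the count there was 3 to 7 genes, with the lowest count without the IL-10 non-phagocytic library 3. Without scaling it was 17 (1 higher and 16 lower). Of the upstream genes 0 of 26 were called in this comparison and 0 of 26 between the phagocytic groups, with 6 and 2 at an unadjusted p under 0.05 (against 20.1% and 13.9% of all genes), and 4 of 26 (1 higher and 3 lower) between Treg-phagocytic and non-phagocytic libraries.

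Between IFN-γ and IL-10 non-phagocytic macrophages 48 of 65 other early genes were called, 29 higher and 19 lower, against 50.7% of all genes. Nr4a1 (2.08 ± 0.16, adjusted p = 8.39e-06), Gadd45b, a stress-response gene (1.95 ± 0.06, adjusted p = 1.97e-08), Dusp2 (1.79 ± 0.10, adjusted p = 1.07e-06), Egr3 (1.44 ± 0.40, adjusted p = 0.0137) and Klf10 (1.36 ± 0.05, adjusted p = 1.21e-07) rose most. Egr3 was at 2.73 ± 2.11 against 0.348 ± 0.167 TPM, and its call was lost with no filter on low values. Fosl2, an AP-1 subunit (-1.83), Atf5 (-1.72), Jdp2, an AP-1 repressor (-1.54), Trib1 (-1.45) and Dusp3 (-1.35) fell most. The T cell sum was 656 to 1059 TPM in IFN-γ and 189 to 201 TPM in IL-10 non-phagocytic libraries. The heat shock sum was 1787 to 2114 TPM against 966 to 1017 TPM. The part of either sum in these differences was not tested. Of the 26 upstream genes 18 were called, 6 higher and 12 lower. Elk3 (-1.15), Crtc3 (-1.06), Elk1 (-0.66) and Braf (-0.53) fell, and Elk4 (0.90) and Map2k6 (0.90) rose. The call of Map2k6 (adjusted p = 0.017) was lost without the IL-10 non-phagocytic library 3 (adjusted p = 0.0511, the highest of its alternatives; the lowest was 0.00439).

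Against M0, IFN-γ non-phagocytic macrophages gave 40 of 65 calls, 26 higher and 14 lower, against 52.4% of all genes. Gadd45b rose by 2.32 on the log2 scale, from 69.1 ± 3.56 to 278 ± 19.6 TPM, Klf10 by 1.68, Nfkbia, the NF-κB inhibitor, by 1.60, Nr4a1 by 1.60 and Klf2 by 1.36. Atf5 fell by 1.78, Ccn1 by 1.40, Jdp2 by 1.35, Sgk1 by 0.99 and Dusp3 by 0.90. The T cell sum was 202 to 321 TPM in M0 and 656 to 1059 TPM in IFN-γ non-phagocytic libraries. In the same order the heat shock sum was 1041 to 1076 TPM and 1787 to 2114 TPM. The stromal sum was 123 to 143 TPM and 8.1 to 11.6 TPM. The part of these sums in the differences was not tested. Of the upstream genes 19 of 26 were called, 8 higher and 11 lower. Elk4 (0.94), Map2k6 (0.90) and Mapk8 (0.66) rose. Mrtfb (-0.83), Elk3 (-0.76), Elk1 (-0.76), Crtc3 (-0.70) and Mrtfa (-0.54) fell. The call of Mapk8 (adjusted p = 0.0485) was lost in 5 of 8 fits that left out 1 library (adjusted p of at most 0.229 over its alternatives). Mapk8 was 17.4 TPM in the IFN-γ non-phagocytic library 3 against 7.28 to 8.1 TPM in the other 3 and 6.32 to 7.86 TPM in M0, and without that library its difference was 0.39 (adjusted p = 0.0159).

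IL-10 non-phagocytic macrophages against M0 gave 43 of 65 calls, 27 higher and 16 lower, against 26.6% of all genes. The Klf and Ier families had 9 of 10 genes called, 8 higher and 1 lower, and the Egr and Nr4a families 3 of 6, all lower. The AP-1 family had 7 of 13 called (5 higher and 2 lower), the Dusp phosphatases 5 of 9 (1 higher and 4 lower) and the others 19 of 27 (13 higher and 6 lower). Zfp36l1 rose by 1.39 on the log2 scale, Trib1 by 1.38, Klf2 by 1.04, Fosl2 by 1.03 and Mcl1 by 1.03. Mcl1 averaged 547 ± 17.5 TPM under IL-10 and 265 ± 6.03 TPM in M0. Myc fell by 1.5, Dusp4 by 1.34, Egr2 by 1.13, Dusp5 by 0.76 and Dusp6 by 0.73. The call of Dusp6 (adjusted p = 0.00205) was lost in 1 model of all 28 libraries (adjusted p = 0.0793, the highest of its alternatives; the lowest was 0.00139).

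The Treg- against Tconv-phagocytic difference was also compared between the cytokines. Of the 65 other early genes 11 were called (5 with a higher and 6 with a lower difference under IFN-γ), against 13.5% of all genes. Per1 had the strongest lower difference (-0.80 ± 0.11, adjusted p = 0.00017), followed by Klf10 (-0.64 ± 0.14, adjusted p = 0.0051). Ccn1 (1.62 ± 0.30, adjusted p = 0.0018) and Cebpd, a C/EBP factor (0.64 ± 0.15, adjusted p = 0.00871), had the strongest higher differences. Ccn1 was at 0.65 to 2.35 TPM in the IFN-γ phagocytic libraries, so that its difference came from the IL-10 side. Of the upstream genes 5 of 26 were called (4 higher and 1 lower), Mapk9 (-0.83), Crtc3, a CREB coactivator (0.80), Map2k2 (0.46), Mapkapk2 (0.28) and Mapk3 (0.22). For Klf6 the differences were -1.18 under IFN-γ and 0.16 under IL-10, given as a description.

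**Figure D5:**
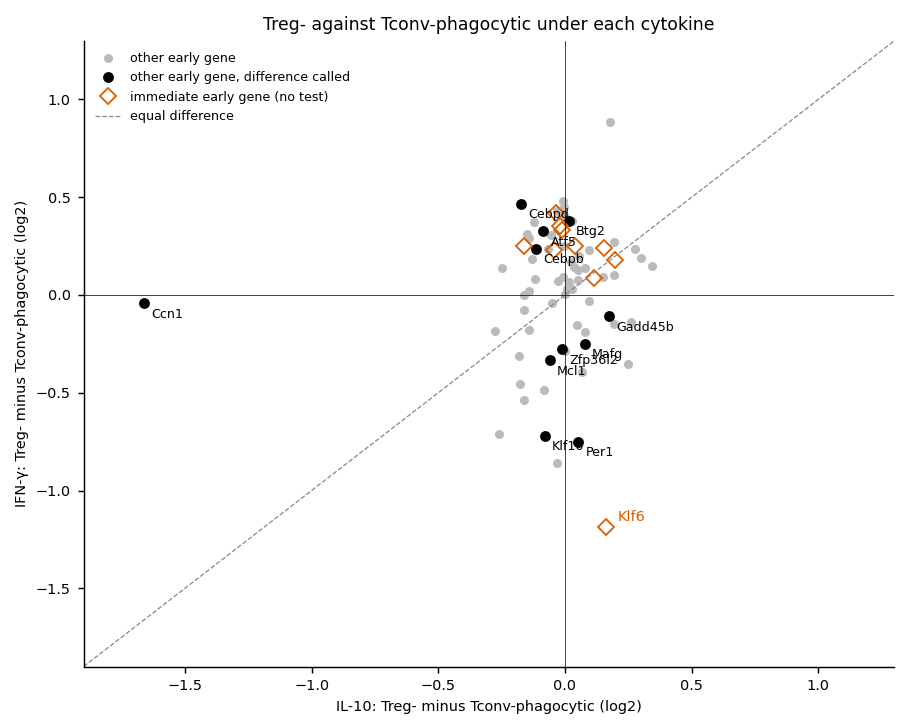
Treg- minus Tconv-phagocytic log2 difference under IFN-γ (vertical) against that under IL-10 (horizontal), after scaling. Grey points are other early genes, black named points those called for the difference between cytokines (11 of 65), diamonds the 10 immediate early genes without a test; Klf6 lies lowest, at -1.18 and 0.16.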

How the data were processed

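RNA of 28 libraries of mouse bone marrow derived macrophages was measured. RNAiso PLUS extraction, poly(A) selection and the NEBNext Ultra II Directional kit are given per the labels' protocols. The submitters' processing notes name STAR, RSEM and mm10, with no versions. The authors' values are TPM, 1 per Ensembl gene ID, per the file headers. Of 55487 IDs, 55141 were matched to a symbol. No library was left out, and 0 pairs of libraries held identical values.

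TPM keeps no depth. Relative depth came from genes with a single annotated transcript, 500 to 2000 nt long, whose TPM times length moves in steps of 1 read. Of values up to about 4 reads, 89.4% to 92.8% were whole to within 0.15 (30% by chance). Read numbers are estimates.

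TPM was divided by an unweighted trimmed mean of log2 ratios (trims of 30% on ratios and 5% on levels, at both ends). Tests used limma 3.58.1 (R 4.3.3), lmFit and eBayes with a trend, on log2(scaled TPM + 1), with only the groups compared in each fit. Fold changes of low genes are understated by the pseudocount of 1. So is their shift from scaling, and the median of all genes moved less than abundant genes did. The filter was 1 TPM or more in 4 libraries or more (13631 genes), with Benjamini-Hochberg adjustment over all of them and a call at an adjusted p under 0.05. The limma fit of a pair of groups was tried on simulated log2 values with independent noise, for some of the comparisons. Scaling, filter and the fits for dye and for the difference between cytokines were not part of that trial. Alternatives were no or median-of-ratios scaling, other pseudocounts and filters, 1 model of all libraries, each library left out, a replicate block and dye terms.

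The 10 genes and all lists were chosen with earlier results of these data known. The text names all 10, the 5 largest called rises and falls among other early genes per comparison, called upstream genes with an absolute log2 difference of at least 0.5, and the genes most alike by Pearson r. A gene that this rule names is not reported here. Heat shock and mitochondrial lists stand for sample quality. Mapk3, Map2k2, Mapkapk2 and, between the cytokines, Zfp36l2 were named after their values were seen.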

Additional observations from a re-analysis of the deposited data

Results flagged for a closer look

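In 4 of 70 sets of 4 libraries (10 genes in 7 groups) 1 library stood far from the others, where chance flags about 1 in 20. Fosb did so in all 3 IFN-γ groups: it was 10.5 TPM in the Tconv-phagocytic library titled BV421-1 against 5.49 to 5.63 TPM in the others, 9.51 TPM in the Treg-phagocytic library titled Ax647-1 against 6.33 to 6.87 TPM, and 4.98 TPM in the non-phagocytic library 4 against 6.27 to 6.45 TPM. Egr1 was 52.0 TPM in the M0 library 1 against 56.4 to 57.1 TPM in the others.

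Klf6 was lower in all IFN-γ Treg-phagocytic libraries than in all IFN-γ Tconv-phagocytic libraries (log2 difference -1.18), and higher in all IL-10 Treg-phagocytic libraries than in all IL-10 Tconv-phagocytic libraries (0.16). This difference between the cytokines was not tested, because the gene was chosen with these values known. The summed heat shock genes were 984 to 1152 TPM, 2062 to 2922 TPM, 1019 to 1089 TPM and 1061 to 1091 TPM in the same order of groups, and their part was not tested.

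The Treg- against Tconv-phagocytic difference was compared between IFN-γ and IL-10 (limma, difference of differences, 4 libraries a group). It was called as unequal for 11 of 65 other early and 5 of 26 upstream genes, against 13.5% of all genes. It was higher under IFN-γ for Ccn1 (1.62, adjusted p = 0.0018), Crtc3 (0.80, adjusted p = 0.0256), Map2k2 (0.46, adjusted p = 0.0066), Mapkapk2 (0.28, adjusted p = 0.00359), Mapk3 (0.22, adjusted p = 0.0227), Cebpd (0.64, adjusted p = 0.00871), Atf5 (0.41, adjusted p = 0.0266), Btg2 (0.36, adjusted p = 0.0309) and Cebpb (0.35, adjusted p = 0.0191). It was lower under IFN-γ for Mapk9 (-0.83, adjusted p = 0.0158), Per1 (-0.80, adjusted p = 0.00017), Klf10 (-0.64, adjusted p = 0.0051), Mafg (-0.33, adjusted p = 0.0111), Gadd45b (-0.28, adjusted p = 0.0481), Zfp36l2 (-0.27, adjusted p = 0.0338) and Mcl1 (-0.27, adjusted p = 0.0232). Of these, Ccn1, Cebpd, Map2k2, Per1, Klf10, Mafg and Mapk9 kept the call under each alternative that was run. The others lost it in at least 1: Cebpb, Mapkapk2 and Mapk3 without scaling (Mapk3 also in 2 of 16 fits that left out 1 library), Zfp36l2 in 9 and Gadd45b in 13 of those 16 fits.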

How the results depend on the processing

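The log2 differences of the 10 genes gave 90 values with 580 alternatives. Of these, 521 moved by less than the spread between replicates, 57 moved further and 2 reversed, counting as reversed a sign change of a difference whose groups did not overlap. Both were Jun without scaling, at -0.17 (IFN-γ against IL-10 non-phagocytic) and -0.11 (IFN-γ non-phagocytic against M0), comparisons in which scaling moved the median of all genes by 0.29 and 0.27. Without scaling 9 of the 90 differences changed sign, these 2 included. Against M0, Atf3 and Ier2 of IFN-γ non-phagocytic libraries went from 0.09 to -0.24 and from 0.20 to -0.12. The other 5 lay between -0.03 and 0.09 after scaling. Klf6 stayed between -1.31 and -1.10 for IFN-γ Treg- minus Tconv-phagocytic macrophages and between -1.22 and -1.10 against non-phagocytic libraries. The share of all genes called was not computed for the alternatives. Counts of other early genes called by limma moved more, and the cause was not tested. In 1 model of all 28 libraries they were 25 in place of 8 (IFN-γ Treg- against Tconv-phagocytic), 21 in place of 9 (IFN-γ Treg-phagocytic against non-phagocytic), 2 in place of 0 (IFN-γ Tconv-phagocytic against non-phagocytic), 2 in place of 4 (IL-10 Treg- against Tconv-phagocytic), 13 in place of 20 (IL-10 Treg-phagocytic against non-phagocytic) and 4 in place of 10 (IL-10 Tconv-phagocytic against non-phagocytic). Without scaling they were 5 (IFN-γ Treg-phagocytic against non-phagocytic) and 17 (IL-10 Tconv-phagocytic against non-phagocytic), and without the filter 5 in each of these comparisons. With either dye label as a covariate the IL-10 Treg- against Tconv-phagocytic count was 2. With 1 library left out the counts were 3 to 7 (IFN-γ Treg- against Tconv-phagocytic), 4 to 8 (IFN-γ Treg-phagocytic against non-phagocytic), 1 to 3 (IL-10 Treg- against Tconv-phagocytic), 3 to 7 (IL-10 Tconv-phagocytic against non-phagocytic) and 7 to 13 (the difference between cytokines). The 3 counts among non-phagocytic and M0 groups stayed between 37 and 49.

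Deviations of samples with the same replicate number had correlations of -0.02 to 0.09, against -0.07 to 0.06 for other pairs. These small correlations cannot decide whether such samples share an origin, which is not stated. For Treg- against Tconv-phagocytic groups the replicate label is the dye and number of the titles. The library names of the Treg-phagocytic libraries give the other dye, so the pairs and the block may join unmatched libraries there. With the replicate block the counts were 4 in place of 8 (IFN-γ Treg- against Tconv-phagocytic), 1 in place of 4 (IL-10 Treg- against Tconv-phagocytic), 46 in place of 48, 38 in place of 40 and 42 in place of 43 (IFN-γ against IL-10 non-phagocytic, IFN-γ against M0 and IL-10 against M0). The shallow IFN-γ libraries limit the precision of low genes such as Fosb and Egr1.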
